A study of Mus musculus with 8 samples.

Results

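The comparison of cells given an siRNA pool against FOXL2 with cells given a non-targeting pool, both under vehicle, rested on 4 of the 8 arrays of the series, 2 per siRNA, paired by replicate number. Of the 24232 genes with an Entrez ID on the array, 15637 had a median signal of at least 10 over the 8 arrays once the 75th percentile had been set equal on all arrays, and these were the genes compared. All cells came from the ovaries of female Swiss mice that were 8 weeks old, and each replicate was a pool from 5 mice. Ovarian follicles that had not yet formed a cavity were the source, so the cultures were mostly granulosa cells. Every culture received 12 pmol of siRNA, either the non-targeting pool (control siRNA) or the pool against FOXL2 (FOXL2 siRNA), together with 200 ng of a plasmid for a red fluorescent protein and a lipid reagent. Treatment with siRNA lasted 24 h, vehicle or 100 nM 17β-estradiol (E2) was present for the 10 h before lysis, and lysis followed 9 days of culture. The labels and the paper do not settle whether those 10 h lie within the 24 h or after them. Charcoal-treated serum and hormone-free medium were shared by all 4 groups. The knockdown was transient, in primary cells of mixed origin, and the control also carried transfected siRNA and plasmid. The replicates were separate pools of mice.

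FOXL2 is a forkhead transcription factor of granulosa cells, the somatic cells that surround and feed the oocyte. It is known for keeping these cells in an ovarian state, and mouse granulosa cells that lose it take on features of Sertoli cells, their counterparts in the testis, including the testis factor SOX9. Granulosa cells also convert steroids made by the neighbouring theca cells into estrogens, secrete inhibins, activins and follistatin, and remodel their matrix and junctions when a follicle ovulates.

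All values below are log2 of the scaled signal of a gene, averaged over its probes. A change is the log2 signal with FOXL2 siRNA minus that with control siRNA, with the standard error (SE) of the limma fit. A gene was called where its limma p, adjusted by Benjamini-Hochberg over the 15637 genes, was under 0.05. The fit used all 8 arrays with the replicate number as a block. Values of a group are given as replicate 1 and then replicate 2.

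The titles of the control siRNA arrays are in doubt. Greb1, a gene that estrogen is known to induce, measured 14.74 and 14.60 on the control siRNA arrays titled vehicle and 13.75 and 13.58 on those titled E2. With FOXL2 siRNA it measured 13.06 and 12.25 with vehicle and 14.35 and 13.86 with E2. Signal was thus lower under the E2 title with control siRNA and higher under it with FOXL2 siRNA. The control siRNA pairs also stand the other way round in the study's own table of effects than in the sample titles. The pairs are named here by their titles, and which of them received vehicle was not settled. Each main result is therefore given a second time against the control siRNA arrays titled E2. The control pairs differed from each other at 182 genes (1.16%), 40 higher (0.256%) and 142 lower (0.908%) under the E2 title.

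Foxl2 itself, the target of the siRNA, did not pass the test at the level of the gene. It measured 13.46 and 13.01 with control siRNA and 13.41 and 13.39 with FOXL2 siRNA, a change of 0.17 ± 0.10 (SE, limma adjusted p = 0.296), and the arrays overlapped. Against the control siRNA arrays titled E2, which read 12.94 and 12.76, the change was 0.55 (limma adjusted p = 0.0023), a higher signal on the arrays labelled FOXL2 siRNA. The 2 Foxl2 probes moved apart. The bright probe read 14.45 and 14.00 with control siRNA and 14.40 and 14.39 with FOXL2 siRNA, a change of 0.17 (limma adjusted p over all probes = 0.328). The dim probe read 7.00 and 6.59 with control siRNA and 5.82 and 5.47 with FOXL2 siRNA, a fall of 1.15 on the log2 scale with an SE of 0.18 (limma adjusted p = 0.00223). It was also lower against the control arrays titled E2, by a change of -0.91 (limma adjusted p = 0.0091). The gene value follows the bright probe. Where either probe lies in the transcript is not given in the files used here, so what each of them says about the siRNA was not tested. Foxl2os, the transcript opposite Foxl2, measured 8.25 and 8.74 with control siRNA and 7.93 and 7.84 with FOXL2 siRNA, a change of -0.61 ± 0.14 (limma adjusted p = 0.0075, and 0.076 without the replicate block). Its call was lost without replicate 2 of control siRNA (adjusted p = 0.14). Every direction below is therefore a difference between arrays labelled FOXL2 siRNA and arrays labelled control siRNA.

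Per array, 51.3 to 55.6% of the probes read well above background, no spot was saturated, and replicate arrays correlated across genes at 0.989 to 0.992. Of 14 granulosa markers 12 were kept, Cyp19a1 only dimly, while Amh and Fshr were well above background on none of the arrays. Of the macrophage and leukocyte markers, C1qa, C1qc, Lyz2 and Ptprc were never well above background. Cdh5, Cldn5, Emcn and Vwf of the endothelial list and 7 of the 10 oocyte markers were not either, and none of the 6 macrophage, 3 endothelial and 2 oocyte markers kept was called by limma (at an unadjusted p under 0.05, 1, 1 and 0). The luteinizing hormone receptor Lhcgr, a marker of theca and luteal cells, was never well above background. Markers of the ovarian surface epithelium did move with the knockdown, as given further on. These are bulk cultures, in which fewer cells of a type and less RNA per cell cannot be told apart.

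With vehicle, 2928 genes (18.7%) were called, 1629 higher with FOXL2 siRNA (10.4%) and 1299 lower (8.31%). The median change over all 15637 genes was -0.0097, and 0.03 against the control arrays titled E2. The median fold of the genes called was 1.49 among those higher and 1.50 among those lower. A change of at least 1 on the log2 scale was seen for 360 of the genes called higher and 320 of those called lower. Without the replicate block 1026 genes were called (6.56%), 567 higher (3.63%) and 459 lower (2.94%). Against the control arrays titled E2, 2710 genes were called (17.3%), 1493 higher (9.55%) and 1217 lower (7.78%). Leaving out replicate 2 of control siRNA lowered the count with vehicle to 1609, and leaving out replicate 2 of FOXL2 siRNA to 1822. The 2 arrays of one siRNA and the 2 of the other did not overlap at 7199 genes (46.0%). The counts of list members called that follow are to be read beside these shares over all genes.

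**Figure D1:**
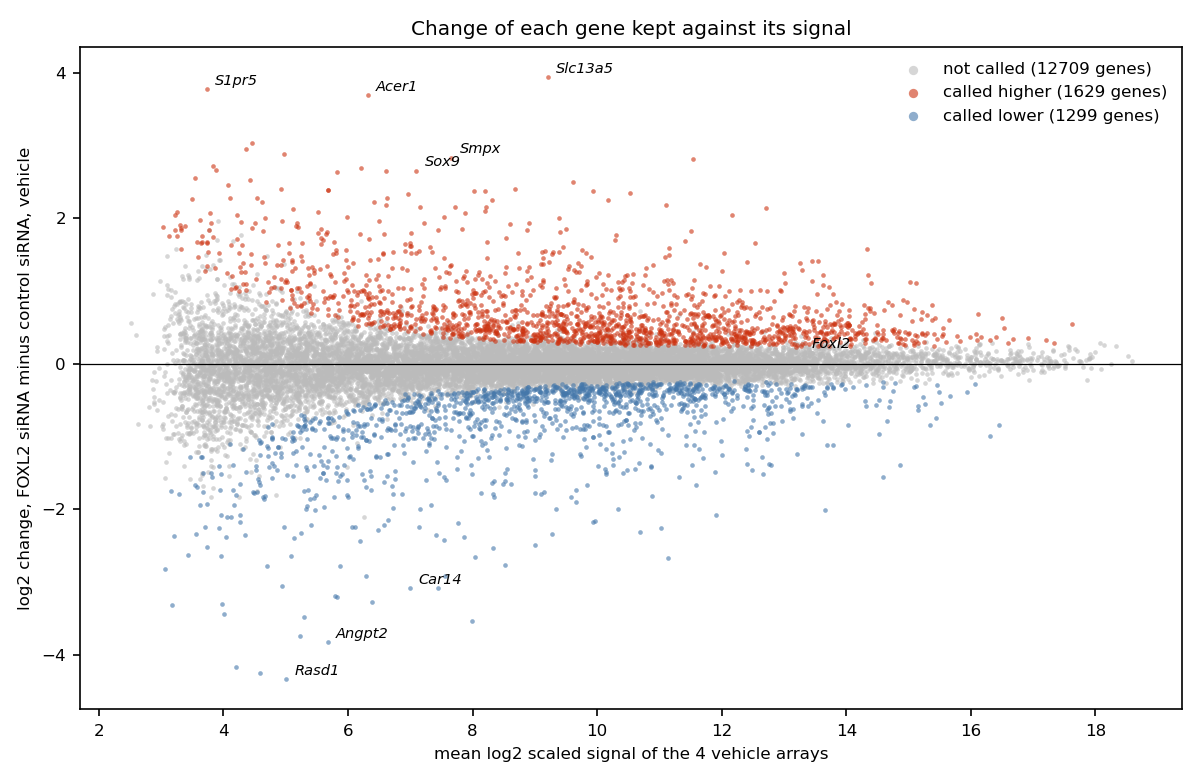
Change with FOXL2 siRNA under vehicle (log2, vertical axis) against the mean log2 scaled signal (horizontal axis), 1 point per gene, for the 15637 genes compared. The 1629 genes called higher and the 1299 called lower lie on both sides of 0 over the whole range of signal.

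The largest changes among genes called higher belonged to transporters, sphingolipid genes, muscle proteins and transcription factors. Slc13a5, a citrate transporter, measured 7.60 and 6.87 with control siRNA and 11.39 and 10.97 with FOXL2 siRNA, a change of 3.94 ± 0.13 or 15.4-fold (limma adjusted p = 2.7e-08). Acer1, a ceramidase, measured 4.42 and 4.52 against 7.95 and 8.38, 13.0-fold higher (change 3.70 ± 0.16). Mybpc3, a myosin-binding protein of heart muscle, measured 10.38 and 9.89 against 13.06 and 12.82, 7.02-fold higher (change 2.81 ± 0.11). Lack of overlap between the vehicle arrays was a condition for picking the genes with the largest changes, and it held at 46.0% of all genes. Smpx, a small muscle protein, rose by a change of 2.84, Plxna4, a semaphorin receptor, by 2.70, and the ion pump partner Nkain3 by 3.04, although Nkain3 was well above background on only 1 control array. Sox9, the Sertoli cell factor, rose 6.32-fold and is given with the testis genes.

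S1pr5, a receptor for sphingosine-1-phosphate, was not well above background with control siRNA and was at least 3.85-fold higher with FOXL2 siRNA (limma adjusted p = 5.42e-05). Gata1, a transcription factor of blood and Sertoli cells, was likewise not well above background with control siRNA and was at least 2.85-fold higher (limma adjusted p = 0.000896). The chemokine gene Ccl7 was at least 2.89-fold higher (limma adjusted p = 0.00719) and the myosin-binding protein Mybphl at least 6.66-fold higher (limma adjusted p = 0.0111), both against control arrays not well above background. Neither of these last genes held its call everywhere. The adjusted p of Ccl7 was 0.081 without the replicate block, 0.14 against the control arrays titled E2 and 0.12 without replicate 2 of FOXL2 siRNA. For Mybphl the same values were 0.14, 0.12 and 0.054, with 0.154 without replicate 1 of FOXL2 siRNA and 0.149 without replicate 2 of control siRNA.

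Among genes called lower, signalling, adhesion and secreted proteins had the largest changes, and 6 of the 12 were not well above background with FOXL2 siRNA, so that only a bound on their fall can be given. Rasd1, a Ras-like protein of G-protein signalling, measured 7.37 and 6.97 with control siRNA and was at least 10.3-fold lower with FOXL2 siRNA (limma adjusted p = 9.5e-07). Angpt2, angiopoietin 2, measured 7.65 and 7.52 with control siRNA and was at least 13.5-fold lower (limma adjusted p = 5.88e-06). The protocadherin Pcdh8 was at least 7.49-fold lower, Luzp4 at least 5.57-fold, the receptor for gastrin-releasing peptide Grpr at least 3.79-fold and the synaptic scaffold gene Ppfia2 at least 2.03-fold. These 6 genes had control arrays well above background in both replicates.

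The others had a signal on at least 1 FOXL2 siRNA array. Hsd11b2, which inactivates glucocorticoids, measured 7.21 and 6.99 against 2.71 and 4.02, and only 1 of the FOXL2 siRNA arrays was well above background (change -3.74 ± 0.45, limma adjusted p = 0.000114). Ackr3, a scavenging chemokine receptor, measured 7.19 and 6.86 against 5.37 and 1.73, so that its fall (change -3.48) rests largely on replicate 2, and its adjusted p was 0.12 without the replicate block. Spink13, a protease inhibitor, fell 9.69-fold. Car14, a carbonic anhydrase, measured 8.78 and 8.28 against 6.16 and 4.73, 8.47-fold lower. Hs3st6, a sulfotransferase of heparan sulfate, measured 8.67 and 9.29 against 5.79 and 6.01, 8.44-fold lower.

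Against the control arrays titled E2, 20 of these 24 genes were called in the same direction. The exceptions were Ccl7, Mybphl, Hsd11b2 (change -1.40, limma adjusted p = 0.054) and Hs3st6 (change -0.32, limma adjusted p = 0.15). Hs3st6 measured 6.03 and 6.41 on the control arrays titled E2, close to its signal with FOXL2 siRNA. Size did not always hold where direction did. Control arrays titled E2 read below those titled vehicle for Rasd1 (-2.55), Car14 (-1.96) and Spink13 (-1.64), so their fitted falls are smaller against that pair. They read above them for Acer1 (1.11), Slc13a5 (0.82), Sox9 (0.79) and Mybpc3 (0.63), whose rises are smaller. Limma called the control pairs different at each of these genes.

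**Figure D2:**
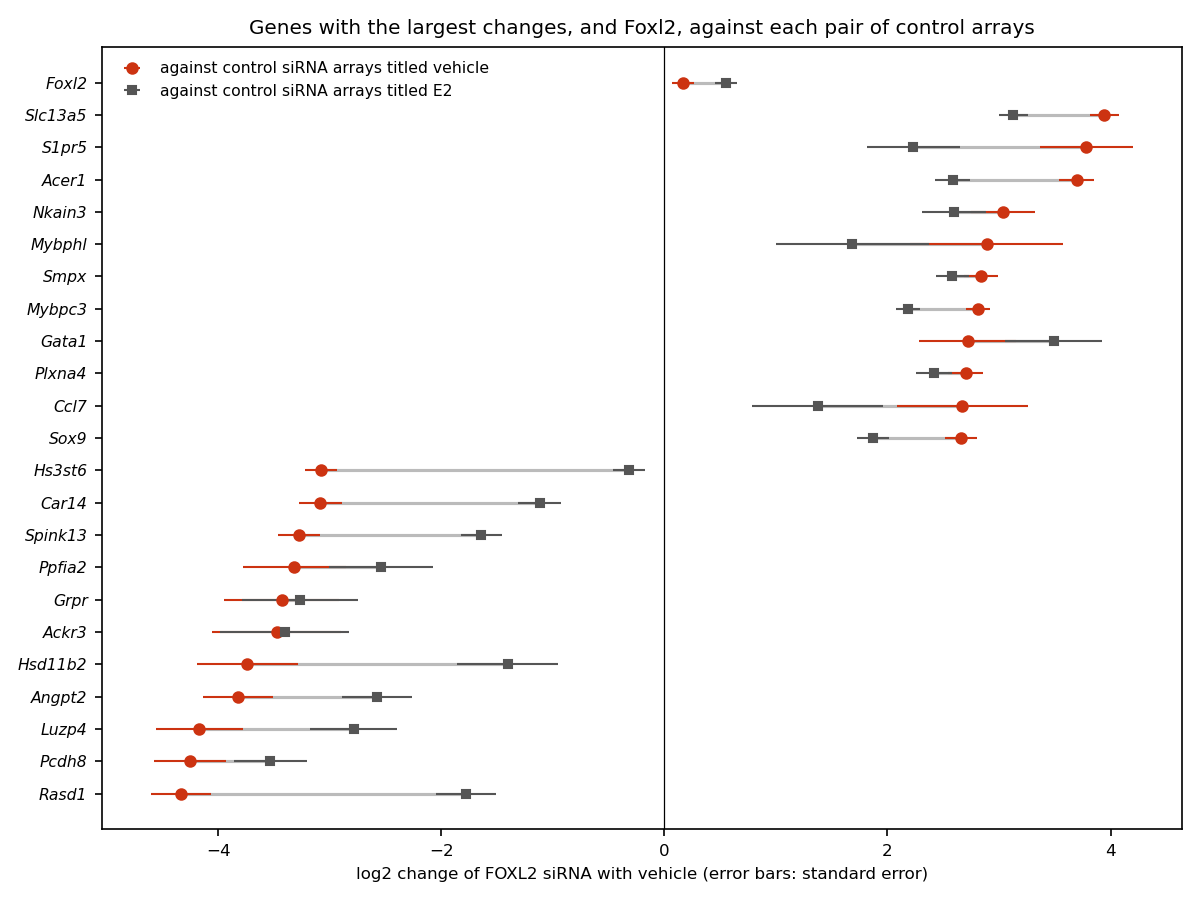
Change (log2, with SE bars) of the genes with the largest changes that the text names and of Foxl2, on the arrays labelled FOXL2 siRNA with vehicle against the control siRNA arrays titled vehicle and against those titled E2. The fitted change is drawn also for the genes that the text gives as bounds. Hs3st6 lies at -3.08 and -0.32.

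Forkhead factors bind a short motif, searched here as the heptamer GTAAACA, the heptamer ATAAACA, the heptamer GTAAATA or the heptamer ATAAATA on either strand of promoters running from 250 bases before to 50 after a start site (RefSeq, GRCm38.p6). Promoters were listed for 11589 of the 15637 genes. A heptamer was found in 137 of 1610 promoters of genes called higher (8.51%), in 124 of 1293 of genes called lower (9.59%) and in 1126 of 11767 of genes not called (9.57%). Among all promoters in that table the share was 15.0%. Of the 24 genes with the largest changes, 13 had a promoter there and 2 held a heptamer, Car14 and Mybpc3. Those promoters are shown with those of 3 further genes described below, Pparg and Ptger2, called lower, and Col6a1, called higher, as examples of where the letters lie. The 250 bases before the start are printed in the direction of transcription, with heptamers in capitals: Car14 at chr3:95904686-95904935 on the minus strand, Mybpc3 at chr2:91117894-91118143 on the plus strand, Pparg at chr6:115421816-115422065 on the plus strand, Ptger2 at chr14:44987861-44988110 on the plus strand and Col6a1 at chr10:76726045-76726294 on the minus strand.
Car14: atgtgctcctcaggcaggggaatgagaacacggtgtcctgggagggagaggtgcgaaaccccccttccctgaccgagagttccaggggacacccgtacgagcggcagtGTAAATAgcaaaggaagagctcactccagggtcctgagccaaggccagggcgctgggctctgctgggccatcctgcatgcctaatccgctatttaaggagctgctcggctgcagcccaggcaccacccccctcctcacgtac
Mybpc3: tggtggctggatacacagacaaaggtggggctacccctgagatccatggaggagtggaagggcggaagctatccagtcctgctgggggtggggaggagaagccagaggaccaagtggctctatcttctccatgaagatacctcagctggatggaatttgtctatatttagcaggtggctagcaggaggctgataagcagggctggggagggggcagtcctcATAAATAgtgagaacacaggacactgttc
Pparg: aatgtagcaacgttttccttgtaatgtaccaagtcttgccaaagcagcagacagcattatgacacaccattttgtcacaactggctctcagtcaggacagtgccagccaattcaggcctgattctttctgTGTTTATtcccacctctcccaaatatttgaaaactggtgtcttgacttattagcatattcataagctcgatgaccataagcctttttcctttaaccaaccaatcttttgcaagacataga
Ptger2: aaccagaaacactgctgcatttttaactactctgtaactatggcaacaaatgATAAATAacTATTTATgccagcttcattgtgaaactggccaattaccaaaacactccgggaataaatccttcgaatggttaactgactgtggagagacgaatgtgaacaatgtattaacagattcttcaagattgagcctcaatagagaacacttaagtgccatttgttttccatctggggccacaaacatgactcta
Col6a1: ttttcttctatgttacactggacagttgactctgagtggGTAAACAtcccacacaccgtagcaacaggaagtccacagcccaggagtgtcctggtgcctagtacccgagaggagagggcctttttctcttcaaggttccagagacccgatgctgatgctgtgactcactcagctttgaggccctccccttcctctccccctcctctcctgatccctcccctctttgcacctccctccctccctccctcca
In these windows the heptamer began 142 bases before the start in Car14, 29 in Mybpc3, 120 in Pparg and 211 in Col6a1, and the first of 2 in Ptger2 began 198 bases before it. A match is a description of letters and not of binding.

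Granulosa genes moved in both directions. Of 26 genes of ovarian fate and granulosa function, 6 were called higher and 10 lower, with a median change of -0.14 (without the replicate block, 3 and 6, and against the control arrays titled E2, 8 and 7). Gja1, which codes for connexin 43, the gap junction protein of granulosa cells, measured 10.22 and 10.29 with control siRNA and 8.06 and 7.47 with FOXL2 siRNA, 5.62-fold lower (change -2.49 ± 0.17, limma adjusted p = 2.04e-06). Fst, which codes for the activin-binding protein follistatin, measured 11.35 and 11.32 against 9.32 and 9.36, 3.99-fold lower (change -2.00 ± 0.14, limma adjusted p = 2.2e-06). Hsd17b1, the enzyme that turns estrone into estradiol, measured 11.003 and 10.760 against 9.656 and 9.145, 2.79-fold lower (change -1.48 ± 0.11). Greb1 fell 4.03-fold. These genes were picked on the condition that the vehicle arrays of the siRNA groups did not overlap, which held at 46.0% of all genes. Against the control arrays titled E2 the changes were -1.91 for Gja1, -1.94 for Fst, -1.50 for Hsd17b1 and -1.01 for Greb1, all called.

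Smaller or less certain values were measured for other granulosa genes that fell. Esr2, the estrogen receptor beta, measured 11.91 and 11.65 against 11.27 and 11.37 (change -0.46 ± 0.11, limma adjusted p = 0.0089), with an adjusted p of 0.09 without the replicate block and up to 0.124 when single vehicle arrays were left out. Nr5a1, the steroidogenic factor SF-1, measured 13.43 and 13.49 against 13.12 and 13.11 (change -0.34, limma adjusted p = 0.0115, and 0.077 without the block), but its change was 0.03 against the control arrays titled E2. Wnt4, a signal of ovarian development, had a change of -0.37 (limma adjusted p = 0.036) with overlapping arrays, and an adjusted p of 0.56 without the block and of 0.373 without replicate 2 of FOXL2 siRNA. Cyp19a1, the aromatase that makes estrogens, was dim at 4.64 and 4.51 against 4.37 and 3.69 and did not pass the test (change -0.54 ± 0.35, limma adjusted p = 0.34). Inha and Inhba, the inhibin and activin subunits, had changes of 0.03 and 0.04 with overlapping arrays (limma adjusted p = 0.825 and 0.83).

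Other genes of the same list were called higher. Rspo1, a secreted WNT enhancer of ovarian determination, measured 7.20 and 6.49 against 8.99 and 8.85, 4.23-fold higher (change 2.08 ± 0.15, limma adjusted p = 2.97e-06). Wt1, a transcription factor shared by granulosa and Sertoli cells, measured 12.98 and 12.78 against 14.13 and 13.91, 2.20-fold higher (change 1.14 ± 0.09, limma adjusted p = 4.05e-06). Both also stood above the control arrays titled E2. Inhbb, the other activin subunit, rose by 0.73 and Amhr2, the receptor for anti-Müllerian hormone, by 0.61, although their adjusted p were 0.12 and 0.078 without the block. Of the 12 granulosa markers kept, 3 were called higher and 3 lower, with a median change of 0.04. Without the replicate block the counts were 1 and 2, and against the control arrays titled E2 they were 5 and 3. The summed scaled signal of the 14 granulosa markers was 139800 to 150800 on the control arrays and 170000 to 186600 on the FOXL2 siRNA arrays. Lack of overlap between these arrays was also seen at 46.0% of all genes. How much each granulosa marker gave to this sum was not worked out, so it is no measure of the list as a whole.

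**Figure D3:**
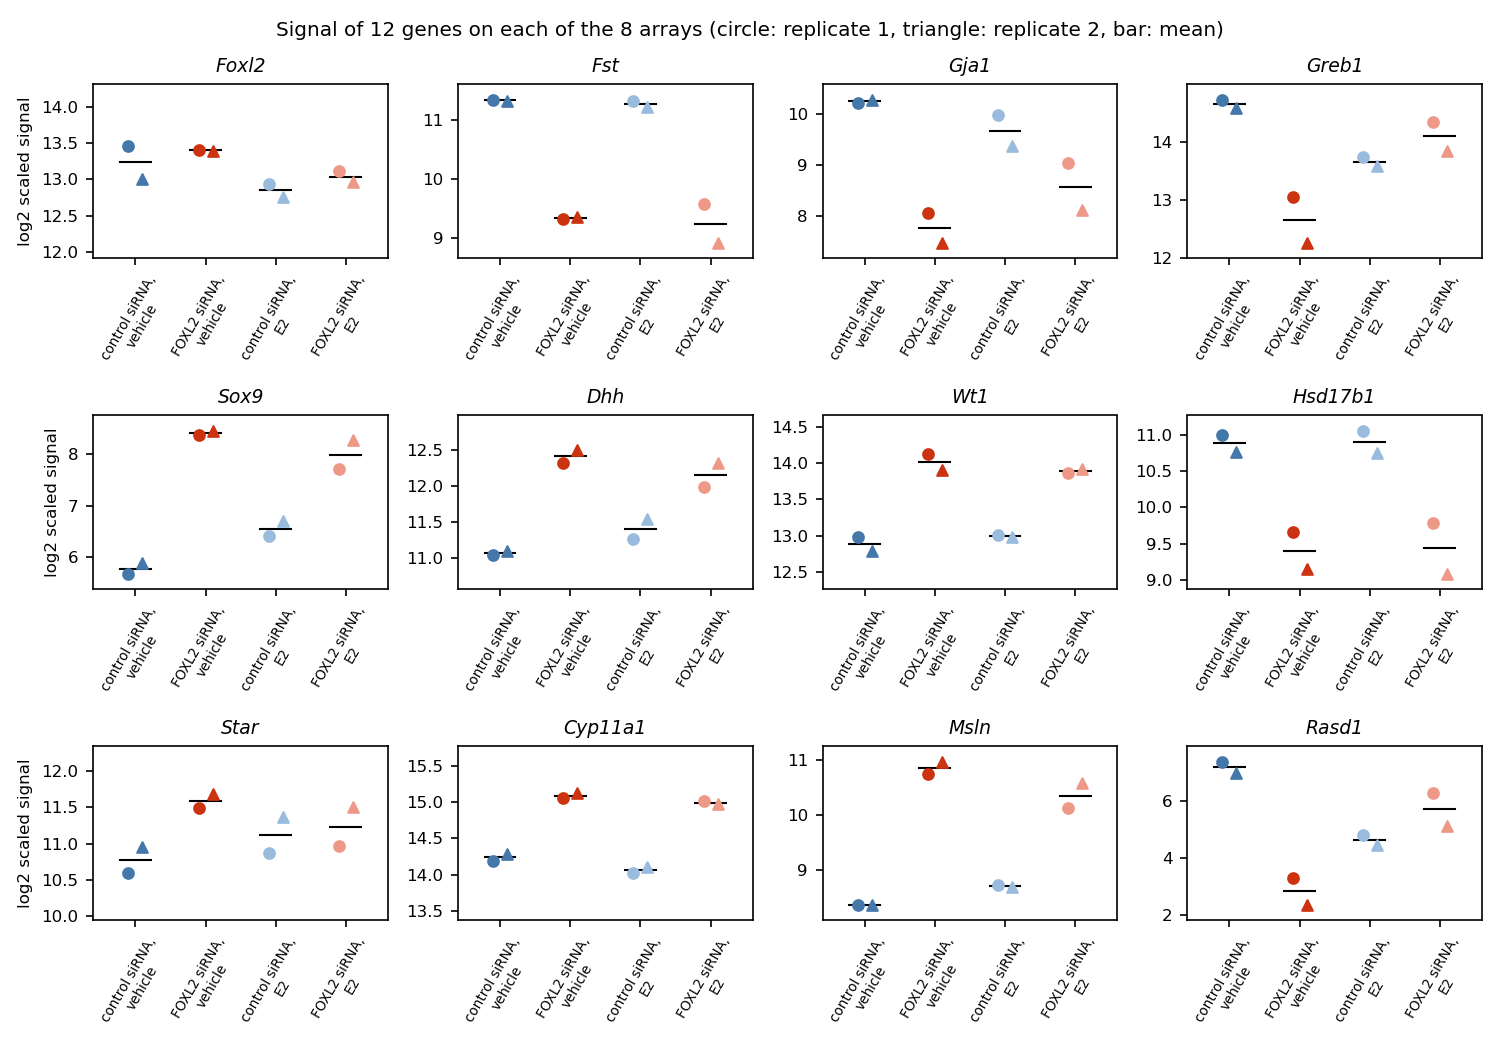
Log2 scaled signal of 12 genes on each of the 8 arrays, by siRNA and treatment title, with a circle for replicate 1, a triangle for replicate 2 and a bar for the mean of the pair. Fst reads 11.35 and 11.32 with control siRNA and vehicle and 9.32 and 9.36 with FOXL2 siRNA and vehicle, while Sox9 reads 5.66 and 5.87 against 8.39 and 8.46.

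Genes of Sertoli and testis fate were more often called higher than lower. Of 16 kept, 8 were called higher and 1 lower, with a median change of 0.66 (without the replicate block, 4 and 0, and against the control arrays titled E2, 8 and 1). Sox9 measured 5.66 and 5.87 with control siRNA and 8.39 and 8.46 with FOXL2 siRNA, a change of 2.66 ± 0.14 (limma adjusted p = 4.33e-07). Sox8, its close relative, measured 5.35 and 5.27 against 7.70 and 7.36, 4.66-fold higher (change 2.22 ± 0.15, limma adjusted p = 2.07e-06). Dhh, the hedgehog ligand that Sertoli cells secrete, measured 11.05 and 11.10 against 12.32 and 12.50, 2.53-fold higher (change 1.34 ± 0.09, limma adjusted p = 1.48e-06). In each of the 3 genes both FOXL2 siRNA arrays also lay above the control arrays titled E2, against which the changes were 1.87, 1.52 and 1.00. Dmrt1, a factor that maintains male fate, was the member called lower, at 7.25 and 6.72 against 6.39 and 6.31 (change -0.63, limma adjusted p = 0.0242). Its adjusted p was 0.13 without the block, 0.44 against the control arrays titled E2 and 0.226 without replicate 1 of control siRNA. Fgf9, a growth factor of testis development, had a change of -0.26 (limma adjusted p = 0.0997) with overlapping arrays.

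The hedgehog pathway carries the signal of such ligands through the receptor Ptch1 and the transducer Smo. Of its 11 genes, 2 were called higher and 3 lower (without the replicate block, 1 and 0, and against the control arrays titled E2, 2 and 1). Dhh and the co-receptor Cdon rose, Cdon by a change of 0.82 that was not called without the block. The co-receptor Boc was at 7.51 and 7.92 against 6.86 and 7.09, a change of -0.74, with an adjusted p of 0.053 without the block. Boc was not called against the control arrays titled E2 either. Ptch1, which is also a target of the pathway, measured 5.23 and 5.56 against 5.38 and 5.73, with overlapping arrays (change 0.16 ± 0.28, limma adjusted p = 0.752).

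Genes of steroid synthesis moved both ways. Of 20 genes of steroid hormone synthesis and metabolism, 5 were called higher and 7 lower, with a median change of -0.14 (without the replicate block, 2 and 6, and against the control arrays titled E2, 7 and 6). The members called higher were Cyp11a1, Star, Fdxr, Hsd17b7 and Srd5a1. Cyp11a1, which cuts the side chain of cholesterol, measured 14.19 and 14.29 with control siRNA and 15.06 and 15.12 with FOXL2 siRNA, 1.80-fold higher (change 0.85 ± 0.08, limma adjusted p = 1.47e-05). Fdxr, which supplies it with electrons, was 1.63-fold higher. Star, which carries cholesterol into mitochondria, measured 10.59 and 10.96 against 11.49 and 11.69, 1.76-fold higher (limma adjusted p = 8.42e-05, and 0.082 without the block). Other enzymes were lower. Hsd3b1, which makes progesterone and shares much sequence with other genes of its family, measured 16.93 and 16.81 against 16.24 and 15.82, 1.78-fold lower (change -0.83 ± 0.10). Akr1c14, which reduces steroids, measured 10.82 and 10.51 against 8.98 and 9.01, 3.17-fold lower (change -1.66 ± 0.11), and Hsd17b1 and Hsd11b2 fell as given above. Cyp17a1, the enzyme of androgen synthesis in theca cells, had a change of 0.20 with overlapping arrays (limma adjusted p = 0.288). Of the 5 theca and stroma markers kept, 2 were called higher (Cyp11a1 and Star) and 1 lower (Hsd3b1), with a median change of 0.20. The summed signal of the 7 on the array, to which Hsd3b1, the brightest, gave most, was 138400 to 148100 with control siRNA and 99150 to 118000 with FOXL2 siRNA. Of the 4 luteal markers kept, 2 were called higher (Star and Parm1) and 1 lower (Akr1c18, change -1.06). Prlr was not called (change -0.08), and the members Lhcgr and Ptgfr were never well above background. The sum of that list was 35890 to 41000 with control siRNA and 56620 to 61200 with FOXL2 siRNA. How much each luteal marker gave to this sum was not worked out, so it is no measure of the list as a whole. The part of either list in these changes was not tested.

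Cholesterol synthesis and uptake moved mostly one way, with 16 of 25 genes called higher and 1 lower and a median change of 0.44 (without the replicate block, 8 and 1, and against the control arrays titled E2, 15 and 0). Hmgcs1, an early enzyme of the pathway, measured 12.47 and 12.29 against 13.58 and 13.67, 2.37-fold higher (change 1.25 ± 0.11, limma adjusted p = 1.26e-05). Idi1, which makes isoprenoid units, rose 1.95-fold and Cyp51, which demethylates lanosterol, 1.82-fold. All 3 were called without the block and against the control arrays titled E2. Sc5d, a late enzyme, was the member called lower (change -0.76), although not against the control arrays titled E2, where the change was -0.16 (limma adjusted p = 0.26). It read 11.69 and 11.90 on those arrays against 12.39 and 12.39 on the control arrays titled vehicle.

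**Figure D4:**
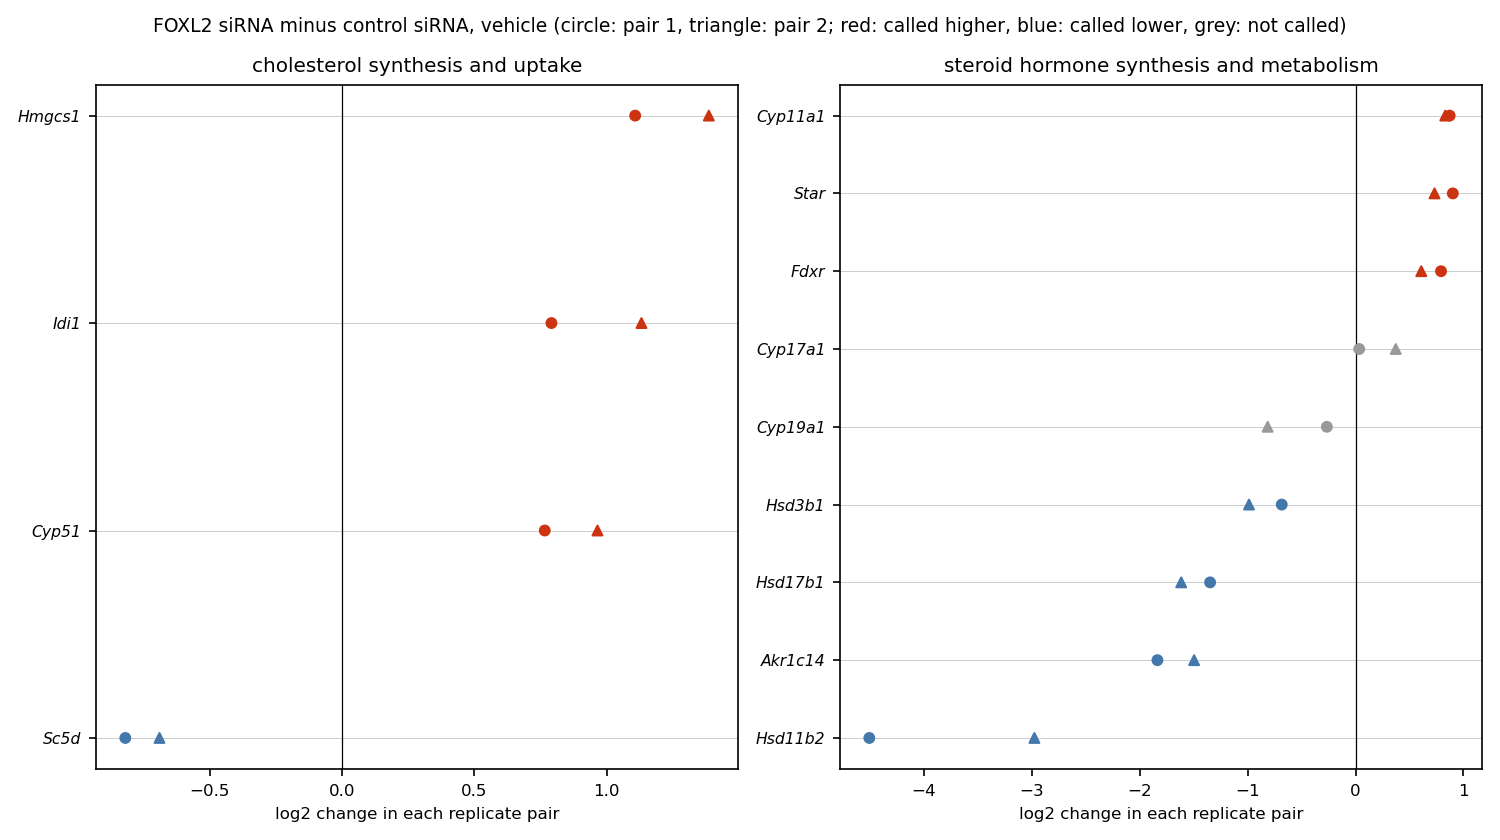
Change (log2) of genes of cholesterol and steroid synthesis whose values the text gives, in each of the 2 replicate pairs with vehicle, FOXL2 siRNA minus control siRNA. Hmgcs1 and Cyp11a1 lie above 0 in both pairs, and Hsd3b1, Akr1c14 and Hsd17b1 below 0 in both.

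Secreted signals of the follicle were lower more often than higher. Of 46 genes of transforming growth factor beta (TGF-beta), activin and bone morphogenetic protein (BMP) signalling, 7 were called higher and 12 lower (without the replicate block, 2 and 9, and against the control arrays titled E2, 8 and 12). Bmp2, a ligand, measured 8.92 and 8.58 against 6.74 and 5.93, 5.35-fold lower (change -2.42 ± 0.29, limma adjusted p = 9.03e-05). The ligand Tgfb2 went the other way, at 8.29 and 8.48 against 10.08 and 9.80, 2.93-fold higher (change 1.55 ± 0.12, limma adjusted p = 3.79e-06), and so did Bmp4, 2.21-fold higher. The activin antagonist Fst fell, as given above.

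Genes that act around ovulation, the ligands of the epidermal growth factor (EGF) receptor, the prostaglandin enzymes and the genes of cumulus expansion, numbered 19, with 4 called higher and 9 lower and a median change of -0.17 (without the replicate block, 3 and 1, and against the control arrays titled E2, 3 and 7). Ereg, an EGF-like ligand, measured 8.29 and 9.44 against 6.31 and 7.05, 4.55-fold lower. Ptgs2, the inducible prostaglandin synthase, measured 10.04 and 10.69 against 8.75 and 9.46, 2.40-fold lower, and Ptger2, the receptor for prostaglandin E2, 10.80 and 10.89 against 9.93 and 8.88, 2.72-fold lower. For these 3 genes the replicates differed enough that the adjusted p without the block were 0.071, 0.11 and 0.054. The prostaglandin enzymes Ptgs1 and Ptges went the other way and were called higher (changes 1.84 and 0.30). Ptgs1 was not called against the control arrays titled E2. Has2, which makes the hyaluronan of the expanding cumulus, fell 2.43-fold and was called either way, and the receptor Egfr had a change of -0.81 (adjusted p = 0.17 without the block). Adamts1, a protease of ovulation, went up, at 10.23 and 10.21 against 11.55 and 11.61, 2.58-fold higher (change 1.37 ± 0.08, limma adjusted p = 8.24e-07). The ligand Nrg1 rose 2.23-fold.

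G-protein and cAMP signalling had 8 of 42 genes called higher and 14 lower (without the replicate block, 5 and 8, and against the control arrays titled E2, 8 and 14). Its regulators of G-protein signalling went opposite ways. Rgs2 measured 10.30 and 10.57 against 8.28 and 7.93, 5.03-fold lower (change -2.33 ± 0.17), and Rgs16 measured 4.83 and 4.18 against 7.14 and 7.14, 6.20-fold higher (change 2.63 ± 0.26). Adora1, an adenosine receptor, rose 4.78-fold, from 7.55 and 6.81 to 9.76 and 9.12. Of 27 immediate early genes, which cells switch on within minutes of a signal, 9 were called higher and 3 lower (without the block, 5 and 3, and against the control arrays titled E2, 8 and 4). Fos fell 3.45-fold, Egr1 1.94-fold and Klf2 1.72-fold, while Ccn2 rose 2.18-fold, Dusp1, a phosphatase of stress kinases, 2.12-fold and Klf4 1.98-fold. Dusp1 read higher on the control arrays titled E2 than on those titled vehicle (0.50, limma adjusted p = 0.028). Its rise is smaller against the pair titled E2. Fos measured 7.72 and 7.79 with control siRNA and 6.19 and 5.75 with FOXL2 siRNA.

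Matrix genes changed in both directions, and more collagens were called higher than lower. Of the 26 genes of the collagen family, 11 were called higher and 2 lower, with a median change of 0.37 (without the replicate block, 7 and 2, and against the control arrays titled E2, 13 and 3). Col6a1 measured 8.62 and 8.41 against 10.30 and 9.76, 2.86-fold higher (change 1.52 ± 0.12, limma adjusted p = 3.7e-06), and its partner chain Col6a2 was 3.16-fold higher. Among the basement membrane chains Col4a6 rose 2.23-fold and Col4a5 2.17-fold, and among the fibrillar chains Col3a1 rose 2.07-fold. Col1a1 measured 9.37 and 8.39 against 10.46 and 9.64, a change of 1.17, with the replicates of each siRNA nearly as far apart as the siRNAs, and its adjusted p was 0.22 without the block. Col17a1, a collagen of epithelial attachment, was not well above background with control siRNA and was at least 4.94-fold higher. Col10a1 was lower, 7.01 and 7.36 against 4.65 and 5.24 (4.73-fold). Of the 8 fibroblast and smooth muscle markers kept, 3 were called higher (Col1a1, Col3a1 and Dcn) and none lower, but 1 and 0 without the block and 2 and 2 against the control arrays titled E2. Myh11, Pdgfra and Tcf21 were never well above background, and the sum of that list was 15170 to 18050 with control siRNA and 19950 to 20450 with FOXL2 siRNA. Its part in the collagen values was not tested.

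The list of collagens and interstitial matrix, which counts some collagens again, held 37 genes with 12 called higher and 9 lower (without the replicate block, 5 and 5, and against the control arrays titled E2, 14 and 11). Col1a1, Col3a1, Col6a1 and Col6a2 are among the 12 higher, and Col27a1 is among the 9 lower. Members other than collagens went both ways. Omd, a matrix proteoglycan, fell 4.87-fold and Thbs1, thrombospondin 1, 2.37-fold, from 13.69 and 13.98 to 12.59 and 12.59. Omd read lower on the control arrays titled E2 than on those titled vehicle (-1.21, limma adjusted p = 0.013). Its fall is smaller against the pair titled E2. Of 35 genes of integrins and basement membrane, 13 were higher and 7 lower (without the block, 7 and 5, and against the control arrays titled E2, 13 and 7). Itga2, a collagen-binding integrin chain, measured 7.21 and 8.29 against 4.78 and 4.89, 7.54-fold lower (change -2.91 ± 0.22, limma adjusted p = 3.41e-06), and Itgb3 fell 2.14-fold, while Itga7, a laminin-binding chain, rose 1.94-fold.

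Proteases and inhibitors of the matrix numbered 37, with 17 called higher and 5 lower and a median change of 0.26 (without the replicate block, 6 and 4, and against the control arrays titled E2, 12 and 7). Plau, the urokinase that activates plasminogen, measured 9.90 and 9.91 against 7.30 and 6.97, 6.81-fold lower (change -2.77 ± 0.18, limma adjusted p = 1.06e-06). It read 7.75 and 8.10 on the control arrays titled E2, against which the change was -0.79 (limma adjusted p = 0.0087). Serpine2, a serine protease inhibitor, fell 2.95-fold. Timp3, an inhibitor of metalloproteases, measured 11.70 and 11.59 against 13.63 and 13.95, 4.43-fold higher (change 2.15 ± 0.12, limma adjusted p = 5.76e-07), and the metalloprotease Adam33 rose 2.97-fold.

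Cell-cell junction genes were called higher for 15 and lower for 10 of 40 (without the replicate block, 8 and 4, and against the control arrays titled E2, 10 and 8). Cdh3, P-cadherin, measured 8.18 and 7.73 against 9.96 and 9.64, 3.59-fold higher, and Jam2, a tight junction protein, rose 3.43-fold. Gja1 and Pcdh8 fell, as given above, and so did the protocadherins Pcdh18 (2.71-fold) and Pcdh7 (2.34-fold). The protocadherin family had 1 of 24 genes called higher and 4 lower, a share called of 20.8% beside 18.7% of all genes (without the block, 0 and 3, and against the control arrays titled E2, 0 and 3).

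Markers of the ovarian surface epithelium, the layer that covers the ovary, were higher with FOXL2 siRNA. Of 8 kept, 7 were called higher and none lower, with a median change of 1.38 (without the replicate block, 6 and 0, and against the control arrays titled E2, 5 and 0), and Lgr5 was never well above background. Msln, mesothelin, measured 8.36 and 8.35 against 10.75 and 10.96, 5.65-fold higher (change 2.50 ± 0.12, limma adjusted p = 1.88e-07). Muc16, a mucin, measured 7.95 and 6.99 against 10.11 and 9.64, 5.30-fold higher, and Upk3b, a uroplakin, rose 3.21-fold. The keratins Krt18 and Krt8, which many epithelia and also granulosa cells make, were 1.45-fold and 1.28-fold higher, Krt8 with an adjusted p of 0.077 against the control arrays titled E2 and of 0.058 without replicate 2 of control siRNA. The summed signal of the list was 17860 to 20020 with control siRNA and 28910 to 29540 with FOXL2 siRNA. Lack of overlap between these arrays was also seen at 46.0% of all genes. How much each marker, the keratins among them, gave to the sum was not worked out. The part of surface epithelial cells in the matrix, junction and epithelial values was not tested.

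Of 39 WNT pathway genes, 10 were called higher and 8 lower (without the replicate block, 4 and 0, and against the control arrays titled E2, 9 and 6). Rspo1 and the WNT-induced matrix protein Ccn4 led those higher, and Ccn4 measured 9.28 and 9.41 against 11.45 and 11.94, 5.09-fold higher. Wnt6, a ligand, rose 2.02-fold. Of the 20 Notch genes, 3 were higher and 1 lower, a share called of 20% beside 18.7% of all genes (without the block, 2 and 0, and against the control arrays titled E2, 3 and 1). Lfng, which modifies Notch receptors, measured 5.99 and 6.41 against 7.80 and 7.86, 3.08-fold higher. The ligand Jag1 had a change of 1.34, with an adjusted p of 0.2 without the block.

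Vascular signals, 23 genes of angiopoietins, vascular endothelial growth factors (VEGFs) and platelet-derived growth factors, were higher for 6 and lower for 6 (without the replicate block, 3 and 2, and against the control arrays titled E2, 8 and 8). Angpt2 fell furthest among these members. Robo4, a receptor known from endothelium, measured 9.319 and 8.762 against 11.595 and 11.001, 4.78-fold higher (change 2.26 ± 0.09), and Pdgfc, a ligand, rose 2.19-fold. Vegfd measured 12.65 and 11.96 against 11.89 and 11.13, a change of -0.79 seen in each replicate while the groups nearly met (adjusted p = 0.29 without the block).

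Among the 23 fibroblast growth factor (FGF) genes, 6 were higher and 2 lower (without the replicate block, 1 and 0, and against the control arrays titled E2, 5 and 3). Fgf18, a ligand, measured 9.47 and 9.39 against 11.04 and 11.22, 3.25-fold higher, and was the 1 member also called without the block. Spry1, an inhibitor of the pathway, had a change of 1.67 (adjusted p = 0.16 without the block). Insulin, insulin-like growth factor (IGF) and phosphoinositide 3-kinase signalling had 9 higher and 9 lower of 28 (without the block, 4 and 3, and against the control arrays titled E2, 7 and 9). Pik3cd, a kinase subunit, measured 9.00 and 9.50 against 7.47 and 7.38, 3.54-fold lower, and Irs1, the adaptor of the insulin receptor, fell 2.36-fold. Both read lower on the control arrays titled E2 than on those titled vehicle (-1.27 and -0.48, limma adjusted p = 0.00085 and 0.027). Their falls are smaller against the pair titled E2. Pappa, a protease that frees IGFs, rose 2.14-fold and Stc2, its inhibitor, 1.93-fold. The binding proteins Igfbp2 and Igfbp5 had changes of 1.39 and -1.83, with adjusted p of 0.092 and 0.2 without the block.

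Fat metabolism genes, of peroxisome proliferator-activated receptors (PPARs), fatty acids and ceramides, were called higher for 9 and lower for 8 of 46 (without the replicate block, 4 and 1, and against the control arrays titled E2, 10 and 4). Pparg, the nuclear receptor PPAR gamma, measured 12.95 and 12.94 against 11.05 and 10.68, 4.21-fold lower (change -2.07 ± 0.12, limma adjusted p = 6.64e-07), with a change of -2.01 against the control arrays titled E2. Smpd3, a sphingomyelinase that makes ceramide, measured 5.76 and 6.38 against 8.15 and 8.31, 4.47-fold higher, and the fatty acid transporter Slc27a6 rose 4.06-fold. Together with Acer1 these were the members with the largest rise. Lpl, lipoprotein lipase, had a change of -0.82 against the control arrays titled vehicle and of 0.11 against those titled E2. Of 18 retinoid genes 5 were higher and 3 lower (without the block, 3 and 2, and against the control arrays titled E2, 5 and 2). Crabp2, a carrier of retinoic acid, fell 2.93-fold, from 15.41 and 15.32 to 14.07 and 13.55, and Rdh10, which makes retinal, 2.83-fold, while Stra6, the receptor that takes up retinol, rose 3.09-fold. Crabp2 read lower on the control arrays titled E2 than on those titled vehicle (-0.80, limma adjusted p = 0.0071). Its fall is smaller against the pair titled E2.

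Guidance molecules, the semaphorins, slits, netrins and ephrins with their receptors, were higher for 18 and lower for 6 of 49, with a median change of 0.20 (without the replicate block, 5 and 2, and against the control arrays titled E2, 14 and 6). Efnb1, an ephrin, measured 11.74 and 11.65 against 13.44 and 13.29, 3.18-fold higher (change 1.67 ± 0.09), and Sema3f, a secreted semaphorin, rose 2.43-fold. Sema3f read higher on the control arrays titled E2 than on those titled vehicle (0.67, limma adjusted p = 0.042). Its rise is smaller against the pair titled E2. Efna4 was lower, 9.34 and 9.34 against 8.70 and 8.59 (1.62-fold).

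Few genes of cell proliferation were called against the control arrays titled vehicle. Of 48, 1 was called higher and 3 lower, a share called of 8.33% beside 18.7% of all genes (without the replicate block, 1 and 0). The median change was -0.11, and 39 of the 48 lay below 0, beside 8083 of all 15637 genes. Against the control arrays titled E2, 1 was called higher and 8 lower, with a median change of -0.19, while 17.3% of all genes were called. Mki67, a marker of dividing cells, measured 12.00 and 11.88 against 11.93 and 11.86, with overlapping arrays (change -0.04 ± 0.08, limma adjusted p = 0.804). Rrm1, a subunit of ribonucleotide reductase, was the member called higher (1.41-fold). G1 cyclins and inhibitors of their kinases were called higher for 5 and lower for none of 19, with a median change of 0.18 (without the block, 4 and 0, and against the control arrays titled E2, 5 and 1). Cyclin D2, Ccnd2, measured 13.02 and 13.06 against 13.77 and 14.25, 1.95-fold higher, and the inhibitors Cdkn2b and Cdkn2a rose 2.41-fold and 2.07-fold. The members called higher thus include both activators and inhibitors of the G1 kinases.

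Of 32 interferon response genes, 9 were higher and 1 lower, with a median change of 0.16, but without the replicate block limma called none (1 at an unadjusted p under 0.05, and against the control arrays titled E2, 12 and 0). Of 28 genes of cytokines, chemokines and NF-kB, 4 were higher and 10 lower (without the block, 0 and 6, and against the control arrays titled E2, 3 and 10). Icosl, a ligand of T-cell costimulation, fell 3.55-fold, from 6.81 and 6.58 to 5.09 and 4.64. Csf1, the macrophage growth factor, had a change of 1.29 (adjusted p = 0.059 without the block). Apoptosis and stress kinases had 9 of 34 genes higher and 4 lower (without the block, 3 and 3, and against the control arrays titled E2, 8 and 3). Gadd45g, a stress sensor, measured 13.41 and 13.65 against 14.88 and 15.36, 3.00-fold higher, its relative Gadd45b rose 2.15-fold, and Bik, which promotes apoptosis, 2.39-fold. Casp6, a caspase, fell 1.41-fold.

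The unfolded protein and amino acid response had 1 of 34 genes higher and 6 lower, a share called of 20.6% beside 18.7% of all genes (without the replicate block, 0 and 3, and against the control arrays titled E2, 1 and 5). Cbs, an enzyme of cysteine synthesis, measured 9.32 and 9.41 against 6.73 and 6.70, 6.29-fold lower (change -2.65 ± 0.15), but read 7.04 and 7.49 on the control arrays titled E2, where the change was -0.55 (limma adjusted p = 0.027). Vldlr, a lipoprotein receptor, fell 2.66-fold. Of 34 genes of glycolysis and hypoxia 8 were higher and 1 lower (without the block, 2 and 1, and against the control arrays titled E2, 8 and 1), among them the aldolase Aldoc, 1.88-fold higher, and the hexokinase Hk2, 1.70-fold higher. Antioxidant and detoxification genes had 11 of 39 higher and 6 lower (without the block, 2 and 2, and against the control arrays titled E2, 11 and 4). Cyp2s1, a cytochrome P450, measured 12.12 and 12.19 against 9.87 and 9.93, 4.78-fold lower (change -2.26 ± 0.08, limma adjusted p = 5.29e-08), and read 10.62 and 10.53 on the control arrays titled E2. The aryl hydrocarbon receptor Ahr fell 1.91-fold. The glutathione transferases Gstm2 and Gstm1, whose sequences are close to each other so that their probes may share signal, were 2.33-fold and 2.11-fold higher.

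Of 34 nuclear receptors, 4 were called higher and 6 lower (without the replicate block, 2 and 1, and against the control arrays titled E2, 5 and 5). Besides Pparg and Esr2, the vitamin D receptor Vdr rose 2.01-fold, from 6.01 and 6.01 to 7.02 and 7.01. Esr1, the estrogen receptor alpha, was dim, at 4.03 and 4.06 against 4.10 and 4.13 (change 0.07 ± 0.32, limma adjusted p = 0.912). Oxidative phosphorylation had 1 of 44 genes called, lower, and cytosolic ribosomal proteins 2 of 96, lower.

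**Figure D5:**
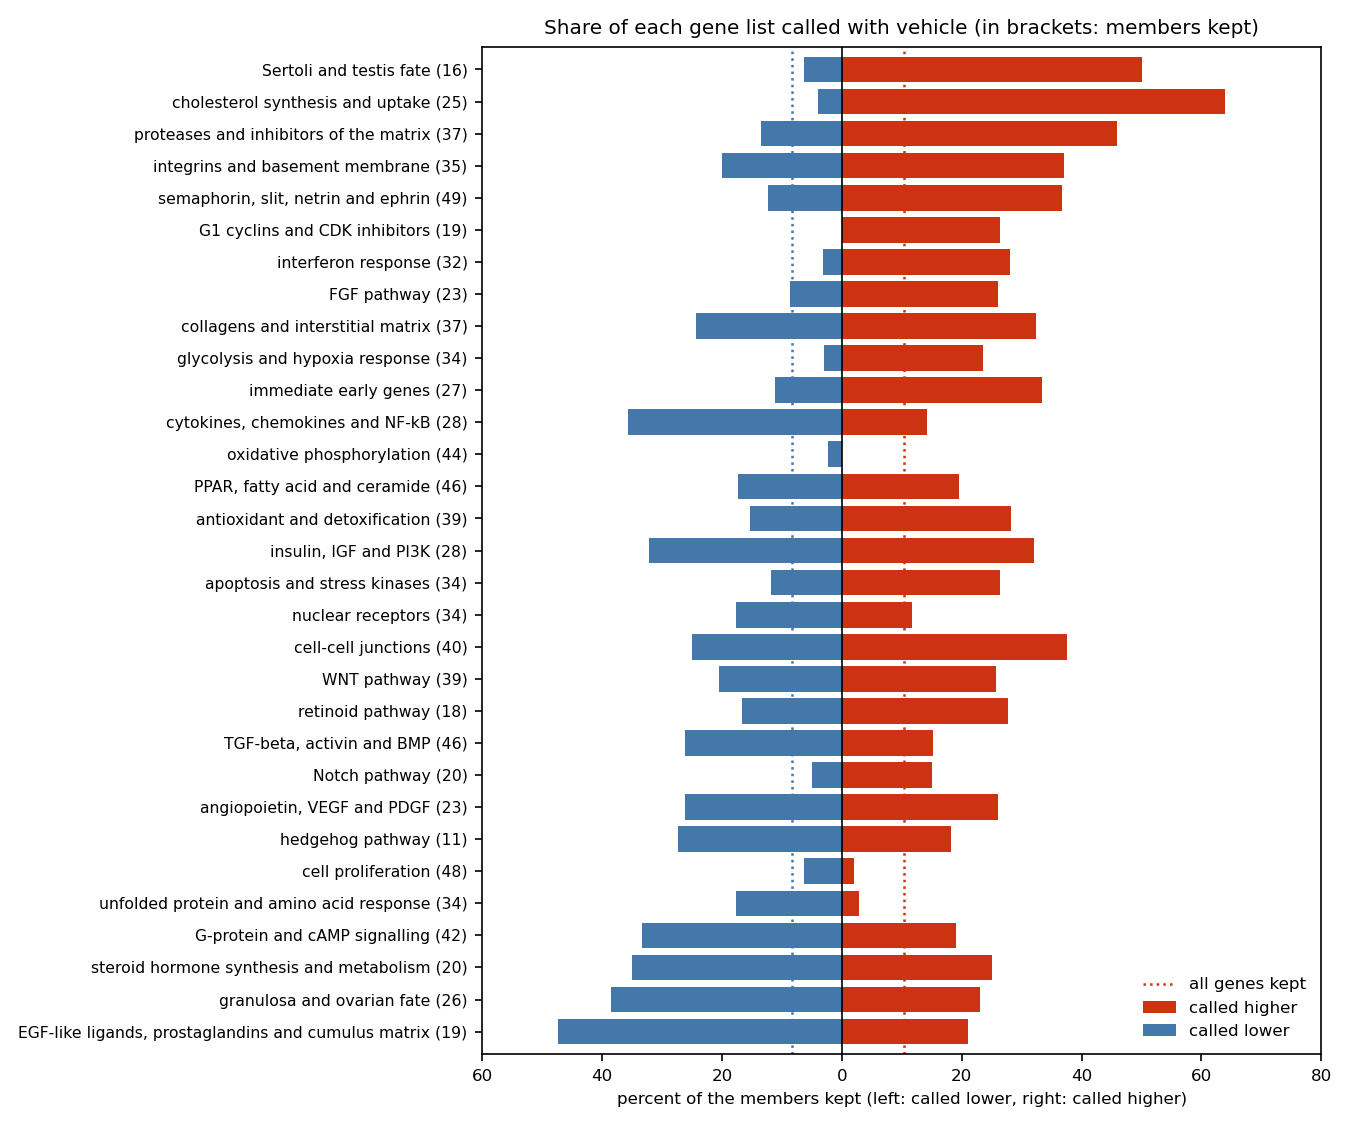
Percent of the members kept that were called higher or lower with FOXL2 siRNA under vehicle in each of 31 lists of genes by function. Dotted lines mark the shares over all genes, 10.4% higher and 8.31% lower; cholesterol synthesis has 16 of 25 higher and oxidative phosphorylation 0 of 44.

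Gene families taken by symbol gave further counts. Sulfotransferases were called lower for 11 and higher for 1 of 21, with a median change of -0.42 (without the replicate block, 7 and 0, and against the control arrays titled E2, 7 lower and 2 higher). Chst8, which sulfates sugars of glycoprotein hormones, measured 11.03 and 11.07 against 9.11 and 8.66, 4.47-fold lower, but 9.29 and 9.19 on the control arrays titled E2 (change -0.35, limma adjusted p = 0.14). Chst15, which sulfates chondroitin, fell 2.22-fold. Tripartite motif genes were higher for 8 and lower for none of 44, a share called of 18.2% beside 18.7% of all genes (without the block, 3 and 0, and against the control arrays titled E2, 7 and 0), led by Trim61, 3.73-fold, and Trim2, 2.12-fold. Solute carriers had 28 of 251 higher and 38 lower, a share called of 26.3% (without the block, 9 and 12, and against the control arrays titled E2, 27 and 27). Slc7a8, an amino acid transporter, measured 13.17 and 13.28 against 11.98 and 11.55, 2.74-fold lower. Zinc finger genes of the Zfp series had 11 of 356 higher and 15 lower, a share called of 7.3% (without the block, 9 and 2, and against the control arrays titled E2, 11 and 14). Keratins had 3 of 18 higher and 1 lower, a share called of 22.2% beside 18.7% of all genes (without the block, 2 and 1, and against the control arrays titled E2, 1 and 1). The lower one was Krt23, which measured 7.41 and 7.38 against 5.50 and 4.44 (5.38-fold).

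Comparisons with E2 turn on the control titles. Taken by title, the effect of FOXL2 siRNA with vehicle differed from that with E2 at 332 genes (2.12%). The signed change was the larger under vehicle at 103 of them (0.659% of all genes) and the smaller at 229 (1.46%). With the control siRNA titles exchanged, the count was 8 (0.0512%), 7 larger (0.0448%) and 1 smaller (0.0064%). Without the replicate block it was 38. Of 4 genes that the study singles out for their response to E2, Hsd11b2, Angpt2, Cbs and Tacc1, all were called lower with FOXL2 siRNA under vehicle, with a median change of -3.20, and 3 against the control arrays titled E2, with a median of -1.07. With control siRNA these 4 genes themselves read lower under the E2 title than under the vehicle title. Those changes were -2.33 for Hsd11b2, -1.245 for Angpt2 (limma adjusted p = 0.107), -2.11 for Cbs and -1.025 for Tacc1. The size of their fall under vehicle thus depends on which control pair is used. The list of these 4 genes was chosen on these arrays and is not independent evidence of its direction. With E2, 2329 genes were called (14.9%), 1173 higher (7.5%) and 1156 lower (7.39%), and this contrast shares its fit with the one under vehicle.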

How the data were processed

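RNA from 8 cultures, 50 ng each, was labelled with Cy3 and hybridised to one-colour Agilent arrays on 1 slide, scanned once, so no batch could be tested. Per the file headers, the scanner files deposited for each array come from Feature Extraction 11.5.1.1, and their processed intensity is the spot signal after background subtraction by the authors' software, not scaled between arrays. The authors' deposited table is on a log2 scale. It equalled the log2 intensity averaged over the probes of a row, minus a constant per array, at 98.7 to 98.9% of rows within 0.001, and its columns had medians of -4.24 to -3.95. The study's methods name scaling to the 75th centile, averaging per gene, a filter at a fluorescence of 10 and subtraction of a median per replicate. That last step was not applied here, because its basis is only partly described.

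Control spots (3671 of 62976) and 42 non-uniform probes were left out, which left 55639 probes. Processed intensities were set to a common 75th percentile (275 to 367 units before) and averaged over the probes of an Entrez ID. Of 24232 such genes, 22349 were named through a RefSeq table and 15637 passed a median of 10. Array intensities carry no read depth, and 2 arrays per group limit the precision. A probe well above background on no array of a group gives only a bound there: the "at least" fold sets the mean of the bright group against the lowest signal well above background, or the probe's own where that was higher.

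The fit used limma 3.58.1 in R 4.3.3, with 4 group means, the replicate number as a block, an intensity trend, 3 residual and a median of 8.62 prior degrees of freedom, two-sided tests and Benjamini-Hochberg adjustment. The numbers pair the samples, since deviations of same-numbered arrays from their group means correlated at 0.327 to 0.445 in all 6 pairs of groups. Python 3.11.15 with pandas 2.3.3, numpy 2.4.6 and matplotlib 3.10.9 made the tables and figures.

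Genes named are Foxl2, the 12 higher and 12 lower with the largest changes among called genes whose arrays did not overlap, up to 3 each way per list or family by the same conditions, and members that define a list. Lists covered 32 functions (1073 symbols, 934 genes kept), 8 sets of cell type markers and 15 families. Members and lists were chosen with earlier results of these data known, and lists were not tested as sets. Target lists that the study made on other arrays were planned for and left out. Some genes that the rule names are not reported here.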

Additional observations from a re-analysis of the deposited data

Results flagged for a closer look

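The effect of FOXL2 siRNA was tested for a difference between vehicle and E2, as the change with vehicle minus the change with E2 in the limma fit, with arrays grouped by their titles. This difference was called at 332 genes, and at 43 of the genes named here. It was negative for 29 of them, a lower signed change under vehicle, and positive for 14. The values below are those differences on the log2 scale.

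The more negative differences were measured for Slc13a3 (-5.44), Rasd1 (-5.43), Hs3st6 (-4.95), Hsd11b2 (-3.52), Cbs (-3.42), Plau (-3.24), Angpt2 (-3.18), Car14 (-3.14), Spink13 (-3.11), Luzp4 (-2.75), Chst8 (-2.66), Greb1 (-2.45), Pcdh8 (-2.42), Pik3cd (-2.26) and Lpl (-2.01). Smaller negative differences were measured for Cyp2s1 (-1.90), Omd (-1.70), Crabp2 (-1.59), Tacc1 (-1.58), Gja1 (-1.39), Icosl (-1.34), Kcne3 (-1.33), Fgf9 (-1.06), Sc5d (-0.98), Akr1c14 (-0.93), Cyp17a1 (-0.84), Col6a1 (-0.82), Pfkfb3 (-0.77) and Irs1 (-0.74). Positive differences were measured for Acer1 (1.73), Slc13a5 (1.49), Sox9 (1.22), Adora1 (1.11), Sox8 (1.01), Dusp1 (0.97), Mybpc3 (0.97), Sema3f (0.90), Msln (0.85), Ccn4 (0.83), Efnb1 (0.77), Star (0.70), Dhh (0.60) and Col3a1 (0.59).

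These flags rest on the titles of the control siRNA arrays, of which the pair titled E2 and the pair titled vehicle differed at 24 of the 43 genes. With those titles exchanged, an alternative chosen after seeing the data, 1 of the 43 was still called, Cyp2s1, with a difference of 1.26 (limma adjusted p = 0.00113) in the opposite direction, and the count over all genes was 8.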

How the results depend on the processing

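Against the 2928 genes called with vehicle, 1932 were called with no filter on low signal, 1820 with no intensity trend and 460 by the rule that the study used for E2 targets, which asks that the means lie 1 or more apart in log2 and by over 2 times the summed SDs. Quantile or normexp processing, the authors' table, the brightest probe, a filter on probes above background, the 4 vehicle arrays alone or the control arrays titled E2 gave 2615 to 3157. Leaving out single arrays gave 1609 (without control siRNA vehicle replicate 2) to 2880, with 1822 without FOXL2 siRNA vehicle replicate 2. For the difference between vehicle and E2, 332 genes, the counts were 91 with no filter, 77 with no trend and 8 with the control titles exchanged. Leaving out single arrays gave 158 to 318 there, with 158 and 196 without replicates 1 and 2 of the control siRNA titled E2 and 191 without FOXL2 siRNA vehicle replicate 1. The vehicle arrays alone cannot give that difference.

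Without the replicate block 1026 genes were called with vehicle, 38 for the difference and 169 of the 394 list members, and 67 of the 199 named genes that were called lost their call. Foxl2 stayed uncalled without the block, and its change was 0.55 against the control arrays titled E2 (limma adjusted p = 0.0023). List members called were 271 to 396 when single arrays were left out.

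Against the control arrays titled E2, 23 of the 199 named genes lost their call and 3 changed direction, Nr5a1 (0.0345), Ihh (0.24) and Lpl (0.11). Leaving out single arrays lost 39 of them at least once, 29 were lost with no filter, 26 with no trend, 12 with normexp and none with the authors' table. The causes were not tested. Signal near background limits the genes given as bounds.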
